A study of Danio rerio with 8 samples.

Results

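The unexposed zebrafish larva at 96 hours post fertilization (hpf) is described here from the 2 arrays labelled Control, out of 8 arrays in the series. Each array carried Cy3-labelled RNA from whole larvae kept in culture water with no zinc added and pooled from the larvae of 1 dish, so an array stands for a pool and not for a single fish. The other 6 arrays carried RNA of exposed larvae, 3 with ZnO NPs (zinc oxide nanoparticles, 2.64 mg/L) and 3 with ZnSO4 (7.75 mg/L), and were used only to see whether the groups of probes described below held on them. No treatment was compared with the control. All 8 arrays lay on 1 slide, and the labels do not say whether the control pools came from separate spawnings, so the difference between the 2 arrays may be technical or biological.

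The members were the probes that could be given a gene symbol, 25853 of 43602 probes with a usable spot, for 13293 genes. They were ranked by the mean over the 2 arrays of the log2 processed signal (the spot's brightness after background subtraction) and split into 3 groups. Probes not well above background on both arrays were called dim (1823 probes, 7.05% of the named probes). The 1292 probes with the highest signal were called top (5% by construction), and the remaining 22738 (88.0%) middle. A gene was placed by its probes, as dim where all its probes were dim (791 genes, 5.95%) and as top where at least 1 probe was top (805 genes, 6.06%), and the percentages of genes in each list below are to be read against these 2 shares. Both shares rest on the 2 arrays together. With control array 1 alone 3089 of the 25853 named probes were dim, against 1823. List shares given for that array alone are therefore not to be read against the 5.95%. Since the groups were cut from the signals themselves, the counts are descriptions and no test was made of them.

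At this age the larva has hatched and swims, its lens and retina serve vision, its heart pumps blood with embryonic globins, and it is passing from feeding on yolk to feeding through a mouth, with a liver, pancreas and gut already in place. Yolk lipid reaches the tissues on apolipoproteins made in the yolk syncytial layer, the sheet of nuclei around the yolk, and in the liver. Adaptive immunity and the gonads mature only weeks later.

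Signals of the 2 arrays followed each other closely. Over the 22734 named probes well above background on both, Pearson's r across probes was 0.994 and Spearman's rho 0.994, as a description, since probes are not independent and share their arrays. The median absolute difference was 0.14 on the log2 scale after each array was shifted by its 75th percentile. Of the 1292 top probes, 1241 were in the highest 5% of each array taken alone. The dim group was less even between the arrays, because 88.1% of the named probes were well above background on control array 1 and 92.8% on control array 2. With control array 2 alone 1853 probes were dim, and with control array 1 alone 3089. In all, 1266 probes were well above background on array 2 only, against 30 on array 1 only.

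**Figure D1:**
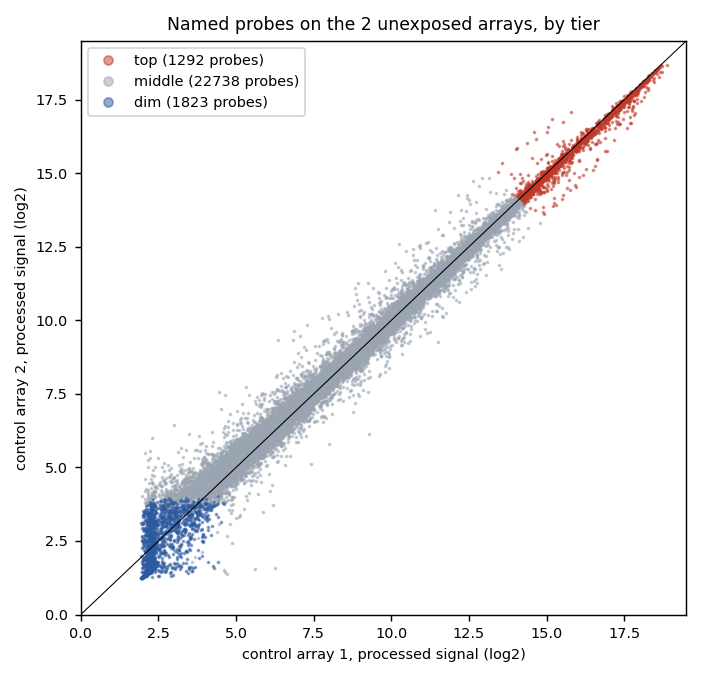
Log2 processed signal of each named probe on control array 1 (x axis) and control array 2 (y axis), coloured by group, with the line of equal signal. Most of the 1292 top probes lie close to the line, with 38 at least 2-fold apart. The 1823 dim probes form a block at low signal, in which the order of signals was not read.

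The top group ran from a mean signal of 14.08 to 18.76 on the log2 scale, with a median of 15.52, against a median of 8.65 over all named probes. It held 75.4% of the summed processed signal of the named probes. Dim probes had mean signals of 1.60 to 4.23. Feature Extraction gives spots not above background a floor value, so the order among dim probes was not read. Not all dim probes sat at that floor, as only 575 named probes lacked a positive and significant signal on both arrays. The cut at 14.08 was not a gap in the signals, as the last probe above it, for rbx1, a RING protein of ubiquitin ligases, read 14.08 and the first below it, for spcs3, a subunit of the signal peptidase, also 14.08.

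How bright a probe is depends on its sequence as well as on its RNA, and probes of the same gene differed widely here. What set them apart was not tested. Among the 7866 genes with more than 1 named probe, the median SD between probes of the same gene was 1.49 on the log2 scale, and in 2022 genes (25.7%) the probes spanned at least 16-fold. Of the 623 top genes with more than 1 probe, 185 had all their probes in the top group, 226 had another probe at least 16-fold dimmer and 8 had a probe that was dim. The probes of pmepa1, a transmembrane regulator of TGF-beta signalling, were the farthest apart, with 1 at 18.16 and 18.11 on control arrays 1 and 2 and another that was dim, at a mean of 2.19. The lists below are therefore described by how many of their genes fall in each group, and no gene's signal is set against another's as an amount of RNA.

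Among the 30 genes with the brightest probes, the ones of translation, muscle and the lens led. Ribosomal proteins gave 11 of the 30 (rpsa, rps2, rps14, rpl7a, rpl26, rps25, rpl3, rps18, rpl8, rpl24 and rpl13), and the elongation factors eef1a1l1 and eef2b were 2 more. The lens gave 8, all gamma M2d crystallins (crygm2d3, crygm2d10, crygm2d14, crygm2d17, crygm2d2, crygm2d9, crygm2d7 and crygm2d12), and striated muscle gave 5, the myosin heavy chain myhz1.1, the actins actc1b and acta1a, the troponin T tnnt3b and the myosin light chain mylpfb. The remaining 4 were the chaperone hsp90ab1, the growth-related protein tpt1, the mitochondrial ADP/ATP carrier slc25a5 and the nucleoside diphosphate kinase nme2b.2. For crygm2d3 the brightest probe read 18.86 and 18.66 on control arrays 1 and 2, and for rpsa 18.72 and 18.65. The 7 probes of eef2b ran from a mean of 12.78 to 18.41, a wider span than that between the brightest probes of these 30 genes.

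**Figure D2:**
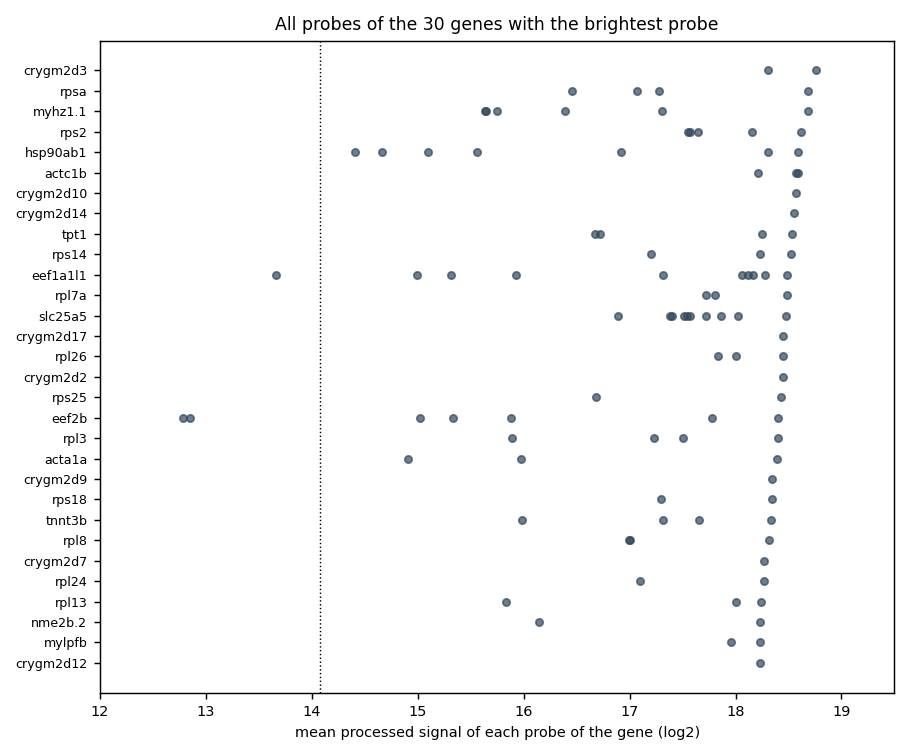
Mean log2 processed signal over the 2 control arrays of every probe (points) of the 30 genes with the brightest probe, in order of that probe, with the lower edge of the top group at 14.08 as a dotted line. All probes of 28 of the genes lie above the line, while eef1a1l1 and eef2b have probes below it.

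Genes of translation and energy metabolism were often top. Of 84 cytosolic ribosomal protein genes 81 were top (96.4%) and none was dim, with a median brightest-probe signal of 17.65. The 3 that were not top were rpl7l1 and rps27l, which are variant forms, and rps8b. Of 81 nuclear-encoded genes of the respiratory chain and ATP synthase 60 were top (74.1%), led by the ATP synthase beta subunit atp5f1b at 17.88 and 17.85. In glycolysis 16 of 36 genes were top, led by gapdh at 17.96 and 17.94 and the enolases eno1a and eno3. Translation factors had 21 of 62 genes in the top group, and their single dim gene was eif4e1b, a form of the cap-binding protein known from oocytes. Of the proteasome 12 of 56 genes were top (21.4%). Of the chaperones of the heat shock family 6 of 71 were (8.45%), a share near that of all genes.

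The cell skeleton and the matrix were also bright. All 5 acta and actb actin genes were top, the cytoplasmic actb2 at 18.11 and 18.15 and actb1 at 17.69 and 17.58. The acta genes among them are actins of muscle, acta1a and acta1b of striated and acta2 of smooth muscle. The actins with actc symbols were counted with striated muscle or in no list, with actc1b and actc1a top and actc2 middle. Tubulins had 9 of 17 genes top, histones 12 of 20, and keratins, the filaments of skin and other epithelia, 12 of 20. The keratins krt92, cyt1l and krt4 read 18.25 and 17.89, 18.27 and 17.82, and 18.03 and 17.92. Collagens had 8 of 22 genes top, led by col2a1a, the collagen of cartilage and notochord sheath, at 16.99 and 17.02, followed by the type I collagen chains col1a2 and col1a1b. The 3 dim histones were h1m, the linker histone of the egg, hist1h4l and hist1h2a2.

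**Figure D3:**
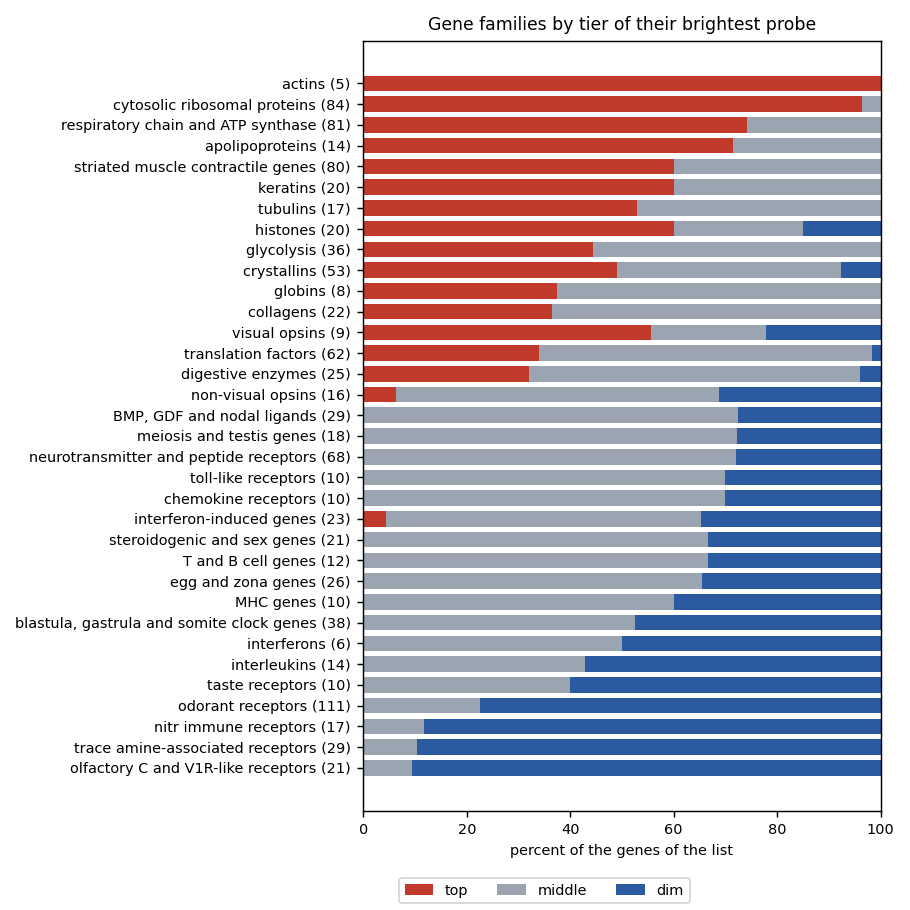
Percent of the genes of each list (number of genes in parentheses) that were top, middle or dim, for the lists with at least 25% of their genes top or dim. Actins (acta and actb genes) and ribosomal proteins are almost entirely top, and the receptors of the olfactory organ, taste cells and nitr immune receptors are mostly dim.

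Organs were read through 30 lists of marker genes. Of 211 markers, 182 had a named probe, of which 54 were top, 115 middle and 13 dim, and the thyroid list had no measured marker. In 23 of the 29 lists with a measured marker none was dim. Of all named genes 88.0% were middle, and lists with all their markers in the middle are to be read against that share. In RNA of whole larvae a marker's signal rises with the number of cells of that type and with the RNA of each cell, and these cannot be told apart.

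Fast skeletal muscle, the bulk of the trunk that drives swimming, had all 12 of its markers in the top group, with a median of 17.71. The fast myosin heavy chain myhz1.1 read 18.67 and 18.69 on control arrays 1 and 2. The parvalbumins pvalb1 and pvalb2, which buffer calcium in fast fibres, read 18.14 and 18.07 for pvalb1 and 17.99 and 17.95 for pvalb2. The calcium pump atp2a1 read 18.01 and 17.91. On each of these probes the arrays read nearly the same. In the wider list of striated muscle genes 48 of 80 were top and none was dim. Slow muscle had tnnc1b (15.72 and 15.43) and smyhc1 (14.56 and 14.67) in the top group, and its markers smyhc2 and mybpc1 in the middle. Both tnnc1b, with 2 probes, and smyhc1, with 3, rested on 1 top probe. Their dimmest probes read means of 12.04 and 10.64.

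The heart had all 6 of its markers in the middle group. Its atrial and ventricular light chain myl7 read 12.25 and 12.26, the troponin tnnt2a 11.14 and 11.46. Smooth muscle of gut and vessels had acta2 in the top group (14.81 and 15.47) and tagln (12.78 and 13.43) and myh11a (11.02 and 11.74) in the middle. All 3 smooth muscle markers read higher on control array 2.

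The eye was bright both through its lens and through its photoreceptors. Of 53 crystallin genes, which code for the proteins that fill lens fibres, 26 were top, 23 middle and 4 dim, with a median brightest-probe signal of 14.04. The top crystallins were led by the gamma M family and included the beta crystallins cryba4, cryba1b and crybb1, while the alpha crystallin cryaa was middle at 12.22 and 11.27. The 4 dim crystallins were crygs2, cryaba, crygm2d21 and crygm6. The many gamma M2d genes are near copies of each other, so a probe may detect several of them and their single signals are uncertain. Of 10 lens markers 3 were top and none was dim, and the lens fibre filament bfsp2 and the water channels mipb and mipa were among the 7 in the middle.

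Of 9 visual opsin genes 5 were top. The rod opsin rho read 17.59 and 17.66, the green cone opsin opn1mw1 16.10 and 16.29, the red cone opsin opn1lw2 15.97 and 16.25, and the ultraviolet and blue cone opsins opn1sw1 and opn1sw2 15.51 and 15.66 for opn1sw1 and 15.04 and 15.19 for opn1sw2. Each of the spectral classes of cone thus had an opsin in the top group. The other green opsins differed from opn1mw1, as opn1mw2 was middle and opn1mw3 and opn1mw4 were dim with both of their probes, at 3.95 and 3.43 for opn1mw3. In phototransduction 8 of 39 genes were top, among them the cone transducin gnat2 (15.42 and 15.43) and the cone arrestin arr3a (16.38 and 15.81), while the rod transducin gnat1 was middle at 11.89 and 12.12. Among 16 opsins outside rods and cones only exorh, the rod-like opsin of the pineal gland, had a top probe (17.27 and 17.23). Its other probe read a mean of 7.77, and exorh is close in sequence to rho, so its place is uncertain. The melanopsins opn4a and opn4xa, which are light receptors of inner retinal and deep brain cells, were 2 of the 5 dim genes of that list.

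Genes of lipid transport, known from the yolk syncytial layer and liver, were mostly top. Of 14 apolipoprotein genes 10 were top and none dim. The main protein of fish high-density lipoprotein, apoa1, had 2 genes in the top group, apoa1b at 17.38 and 17.38 and apoa1a at 17.50 and 17.24, and apoa2 read 17.91 and 17.80. The yolk and liver lipoprotein apobb.1 read 15.46 and 15.57, and mttp, which loads lipid onto it, was middle at 8.87 and 9.59. Of 12 liver markers 5 were top, among them the fatty acid binding protein fabp10a (15.02 and 15.64) and the protease inhibitor serpina1 (16.61 and 16.71), and 7 were middle. Plasma proteins as a list had 8 of 33 genes top, led by rbp4, the carrier of retinol, and complement 1 of 19, cfd.

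Vitellogenins are the yolk precursors that the liver of the mature female makes. All 5 named genes were in the middle group, with a median brightest-probe signal of 5.04, but with control array 1 alone 40.0% of them were dim. The highest, vtg7, read 6.26 and 6.13, and the lowest, vtg4, 3.46 and 3.99. Each gene was placed in the middle group by its brightest probe, while 30 of the 44 vitellogenin probes were dim, and 7 were well above background on both arrays.

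The exocrine pancreas had 5 of 12 markers in the top group and 1 dim, the lipase cel.2, and the wider list of digestive enzymes had 8 of 25 top. Trypsin prss1 read 15.79 and 17.08 on control arrays 1 and 2, the elastases ela2 and ela3l 15.16 and 16.83 for ela2 and 14.37 and 16.03 for ela3l, and chymotrypsin ctrb.1 15.06 and 16.57. Every one of these was higher on control array 2, a difference taken up below. The endocrine islet had its 4 markers in the middle group, insulin (ins) at 12.02 and 13.13 and the glucagon genes gcga and gcgb at 10.09 and 11.06 and at 10.04 and 11.07. Of 4 intestinal markers, fabp2 was top at 14.53 and 15.53, and vil1, slc15a1b and cdx1b were middle.

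Blood was marked by a few globins. Of 8 globin genes 3 were top and 5 middle, and the top ones were the embryonic alpha globins hbae3 (17.80 and 17.29) and hbae1.1 (17.76 and 17.19) and the embryonic beta globin hbbe2 (15.72 and 15.11). The globins known from adult fish were in the middle group, with hbaa2 at 9.82 and 8.91, hbba2 at 5.78 and 5.14 and hbba1 at 3.79 and 4.65. So was another embryonic beta globin, hbbe3, at 8.71 and 7.64, so embryonic and adult globins did not separate cleanly by group. Of the 2 probes of hbba1, 1 was dim, at a mean of 2.04. With control array 1 alone 12.5% of the globin genes were dim. Near-identical globin genes may share probes, so the split within each pair is uncertain. In heme synthesis 1 of 10 genes was top, alas1, at 15.68 and 15.65, while alas2, the enzyme of red cells, was middle at 9.21 and 8.61. White cells had no top marker, with the lysozyme lyz of neutrophils and macrophages at 12.04 and 11.68 and the macrophage gene mpeg1.1 at 8.87 and 8.48.

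Skin, cartilage, pigment and nervous tissue were all above the dim line. In skin the keratins krt4, krt5 and krt91 were top. Cartilage and notochord had col2a1a and matn1 (16.18 and 15.89) in the top group, while the 5 bone markers were all middle, col10a1a at 13.50 and 13.46 and the osteoblast factor sp7 at 5.24 and 5.64. Neurons had 1 of 8 markers top, stmn2a, a protein of growing axons, at 14.78 and 14.76, and the synaptic protein snap25a just below at 13.74 and 13.73. Glia had gfap at 13.18 and 12.93. Melanin synthesis was represented by tyrp1b in the top group at 15.22 and 14.56, while tyr, the first enzyme of that path, was middle at 5.16 and 4.67. The hatching gland, whose enzymes digest the egg envelope, still read above background, with he1.2 at 13.02 and 12.76 and he1.1 at 11.52 and 11.24.

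**Figure D4:**
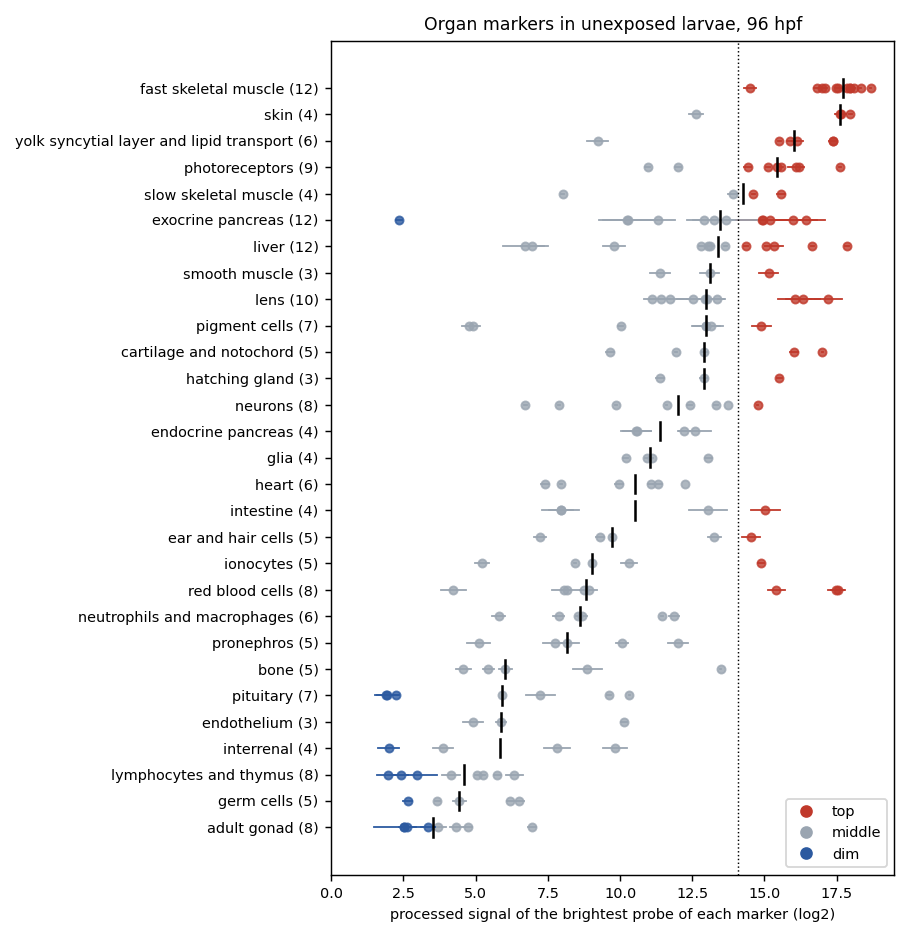
Log2 processed signal of the brightest probe of each marker gene, by organ list (number measured in parentheses), with points at the mean of the 2 control arrays, thin bars from one array to the other, black ticks at the list's median and the lower edge of the top group as a dotted line. All 12 fast muscle markers, 3 of 4 of skin and 5 of 6 of lipid transport are top, the dim markers belong to the pituitary, interrenal, lymphocyte, germ cell and gonad lists and to 1 pancreatic lipase, and the bars of pancreas, lens and intestine are the longest among bright markers.

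Families of developmental regulators differed in their share of dim genes. All 47 hox genes, which set position along the body axis, were middle, against 88.0% of all genes, led by hoxb8a at 12.33 and 12.27, and with control array 1 alone 4.26% were dim. Forkhead and sox genes were near the share of all genes, as of 53 forkhead genes 48 were middle and 5 dim, and of 23 sox genes 1 was top, sox4b at 14.48 and 14.57, and 2 were dim. Among ligands of signalling pathways 8 of 29 BMP, GDF and nodal genes were dim (27.6%), as were 2 of 20 wnt genes and 3 of 30 fgf genes (10% of each). With control array 1 alone 30% of the wnt genes and 30% of the fgf genes were dim. That array alone left 3089 of all 25853 named probes dim, against 1823 with both arrays. Of 59 genes of DNA replication and mitosis 56 were middle, against 88.0% of all genes, and 3.39% were dim, against 5.95% of all genes. The gene mcm7, a subunit of the replicative helicase, was top at 14.96 and 15.04.

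Genes that pattern the blastula and gastrula or run the segmentation clock, stages long past at 96 hpf, were often dim. In a list of 38 such genes, written after their signals had been seen, 18 were dim (47.4%, against 5.95% of all genes) and 20 middle. The dim ones included nanog (2.13 and 1.42), an activator of the zygotic genome, the endoderm factors sox32 (2.36 and 2.62) and sox17 (2.20 and 1.94), the nodal ligand ndr1 (2.48 and 3.06) and the organizer gene dharma (2.04 and 1.91). The somite clock genes her1 and her7 were dim, as were mespaa, mespba and mespbb, which set segment borders. Others of the list were well above background, among them gsc at 12.03 and 12.14 and the notochord factor tbxta at 7.50 and 7.59.

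Receptors of smell and taste were mostly dim. Of 111 odorant receptor genes 86 were dim (77.5%), of 29 trace amine-associated receptors 26 (89.7%), of 21 olfactory C and V1R-like receptors 19 (90.5%) and of 10 taste receptors 6 (60.0%). These receptors are each expressed in few cells, as an olfactory neuron uses mainly 1 of them. The exceptions among odorant receptors were led by or70a2 at 9.63 and 9.72, whose other probe read a mean of 3.57, then by or61c2 at 6.85 and 6.65 and or64b4 at 6.82 and 6.65. Among amine receptors taar12h (5.65 and 5.27) was the highest, and among the olfactory C receptors olfcs2 (5.89 and 6.04). Of all named probes 88.1% were well above background on control array 1 and 92.8% on control array 2. The lowest log2 signal of a spot so marked was 4.29 on array 1 and 3.58 on array 2. What lay behind this difference was not tested. With control array 1 alone 89.2% of the odorant receptors and all taste receptors were dim.

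Other receptor and channel families were measurable for the most part. Of 68 receptors for transmitters and peptides 19 were dim (27.9%) and none top, and with control array 1 alone 51.5% were dim. Ion channels opened by transmitters had 2 of 47 genes dim, potassium channels 8 of 55, and sodium and calcium channels 5 of 32. With control array 1 alone these shares were 8.51%, 21.8% and 25%. All 34 protocadherins, neuronal adhesion proteins, were middle or dim, with 4 dim. In the pituitary and hypothalamus 22 of 27 hormones were middle, such as pomca (10.33 and 10.32), the precursor of corticotropin, and gh1 (9.55 and 9.69), growth hormone. The 5 dim hormones were ghrh, kiss1, smtla and the gonadotropin beta chains fshb (2.30 and 1.58) and lhb (2.29 and 1.52).

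Immune genes were divided. The nitr genes code for immune-type receptors of bony fish related to natural killer cell receptors, and their list was added after values were seen. Of 17 nitr genes 15 were dim (88.2%), and only nitr12 (4.91 and 4.95) and nitr4a (3.60 and 1.78) were not. By probe 25 of 27 were dim, and with control array 2 alone 94.1% of the nitr genes were. Of 14 interleukins 8 were dim, among them il10, il12a, il12ba and il1b, and the highest was il34 at 9.66 and 9.29, a growth factor for macrophages. Interferons had 3 of 6 genes dim, MHC genes 4 of 10, toll-like receptors 3 of 10, chemokines 7 of 29 and interferon-induced genes 8 of 23. By probe, the dim counts in that order were 4 of 7, 8 of 17, 13 of 22, 11 of 40 and 13 of 33. With control array 1 alone 60.0% of the toll-like receptors and 58.3% of a list of T and B cell genes were dim, against 30% and 33.3% with both arrays. In lymphocyte genes the recombinase subunit rag1 (2.25 and 3.67), cd8a (2.32 and 1.58) and the thymus factor foxn1 (2.19 and 2.67) were dim, while lck (5.16 and 5.33), zap70 and pax5 were middle. Both lck and zap70 also had 1 dim probe. Mxc, an antiviral GTPase, was the only interferon-induced gene in the top group, at 15.65 and 15.77, and rested on 1 of its 3 probes, with another dim at 2.09. Complement had no dim gene among 19, where the share of all genes was 5.95%.

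Germ line and sex genes had more dim genes than the 5.95% of all genes, though most were middle by at least 1 probe. Of 26 egg and zona genes 9 were dim and none top, of 18 genes of meiosis and testis 5, of 12 genes of piRNA and germ plasm 2, and of 21 steroidogenic and sex genes 7. By probe, the dim counts in that order were 26 of 53, 14 of 32, 10 of 25 and 20 of 44. The dim share of all named probes was 7.05%. With control array 1 alone 44.4% of the meiosis and testis genes and 33.3% of the piRNA and germ plasm genes were dim, against 27.8% and 16.7% with both arrays. The germ cell helicase ddx4 (vasa) was dim at 2.49 and 2.79, while nanos3 read 6.66 and 6.33. The gonadal aromatase cyp19a1a (3.60 and 3.09), the hormone amh (2.41 and 2.60) and the gonadotropin receptors fshr and lhcgr were dim, and the brain aromatase cyp19a1b was middle. In the interrenal gland, the fish adrenal, star read 7.37 and 8.27 and cyp17a1 10.22 and 9.39, while the corticotropin receptor mc2r was dim at 2.36 and 1.62.

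Bright and dim genes also lay next to each other in the genome. In the gene order of the RefSeq annotation of the assembly GRCz12tu, counting only protein-coding genes with a named probe, the longest runs of top genes were 2 runs of 6 gamma M2d crystallins and a run of 6 keratins (krt1-19e, krt92, cyt1l, cyt1, krt17 and krt91). A run of 5 ferritin-like genes, among them fthl27, fthl28, fthl29 and fthl31, and a run of 4 fast myosins (myhz2, myhc4, myhz1.2 and myhz1.1) followed. The longest dim runs were 17 olfactory C receptors, 15 and 10 amine receptors and 11 nitr genes. These are arrays of duplicated genes, so their members share sequence and are not independent of each other.

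Between the 2 control arrays, 374 of 22734 probes (1.65%) were at least 2-fold apart, 150 higher on array 1 (0.66%) and 224 higher on array 2 (0.985%), in 264 genes. Differences are given as control array 1 minus control array 2 on the log2 scale after the 75th percentile shift, and with 1 pool an array they have no replicate. Of all 22734 probes 11360 were higher on array 1 and 11374 on array 2, against which counts of direction in a list are to be read. The median differences of crystallins, globins, keratins, digestive enzymes, chitinases and P450 genes kept their sign with quantile normalization, with no scaling and with normexp. Crystallins accounted for 40 of the 150 probes higher on array 1 (26.7%), and digestive enzymes with chitinases for 44 of the 224 higher on array 2 (19.6%), and the other 290 of the 374 probes lay outside these lists. The chitinase list was added after values were seen, and without it the digestive enzymes gave 39.

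Lens genes read higher on control array 1. Of 75 crystallin probes well above background on both arrays 71 were higher on array 1, with a median difference of 1.07. The gamma M2d crystallins listed above among the genes with the brightest probes were also higher on array 1, but by less than 2-fold. Of these, crygm2d3 read 18.86 and 18.66, crygm2d7 18.46 and 18.08, and crygm2d12 18.30 and 18.15. Another bright crystallin, cryba4, at 17.70 and 16.70, was at least 2-fold apart. Crybb1 read 16.64 on array 1 and 15.47 on array 2, a difference of 1.19, and all 4 of its probes were at least 2-fold higher on array 1. The fibre filament gene bfsp2 read 13.60 and 12.28, the membrane protein lim2.4 13.06 and 11.98, and the lens transcription factor foxe3 6.34 and 5.21, so the difference was not limited to crystallins. All 10 lens markers were higher on array 1. Photoreceptor lists were split in direction, by small medians. The 20 visual opsin probes well above background on both arrays were all higher on array 2, with a median of -0.11, while 42 of 67 phototransduction probes were higher on array 1, with a median of 0.11. Both medians were smaller in size than the median absolute difference of all named probes, 0.14. The cone arrestin arr3a was higher on array 1 by 0.59, and the pigment epithelium gene rpe65a was higher on array 1, at 14.11 and 12.68.

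Globins and pigment cell markers moved the same way by less. All 9 globin probes well above background on both arrays, out of 13, were higher on control array 1, by a median of 0.61, and so were 7 of 7 brightest probes of pigment cell markers, by a median of 0.68, among them dct at 13.47 and 12.48. Other red cell markers varied, with a difference of 0.63 for alas2, 0.19 for slc4a1a and 0.08 for epb41b. The globin hbba1, not well above background on both arrays, read higher on array 2, at 3.79 and 4.65. In heme synthesis 7 of 21 probes were higher on array 1 and 14 on array 2, with a median of -0.03. Keratin probes were higher on array 1 in 56 of 64, by a median of 0.43. The stress chaperones hsp70l (12.68 and 11.16), hsp70.3 (12.08 and 10.68) and hsp90aa1.2 (12.77 and 11.57) accounted for the 7 heat shock probes that were at least 2-fold apart, out of 150, and the median of that family was 0.09.

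Pancreas and gut read higher on control array 2. Of 44 digestive enzyme probes well above background on both arrays 43 were higher on array 2, 39 of them at least 2-fold, with a median difference of -1.61. All 8 chitinase probes well above background on both arrays, out of 11, were higher on array 2 too, with a median of -1.70. The chitinase list was added after values were seen, so it is no separate support. Amylase amy2a read 12.64 on array 1 and 14.73 on array 2, the carboxypeptidase cpa1 9.26 and 11.28, and chia.2, a chitinase, 10.25 and 12.60. Enterocyte genes followed, with the brush border protein vil1 at 12.40 and 13.71 and the glucose transporter slc5a1 at 8.99 and 10.13. The islet hormones ins, gcga and gcgb were higher on array 2 by close to 2-fold as well, with a difference of -1.09 for ins. In the P450 family the median difference was -0.26, and 16 of 105 probes were at least 2-fold higher on array 2 and none on array 1, among them cyp3a65 of gut and liver at 8.81 and 10.49 and cyp7a1, the first enzyme of bile acid synthesis, at 7.84 and 9.28.

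The 12 probes farthest apart mixed these tissues with others. The largest difference was that of nr1d1 (Rev-erb alpha), a repressor in the circadian clock, at 9.28 on control array 1 and 6.12 on control array 2, a difference of 3.18, and its other probe was well above background on array 1 only, at 5.62 and 1.56. The chemokine cxcl19 was also higher on array 1, at 7.40 and 5.11. The other 10 probes, for 9 genes, were higher on array 2, namely si:ch211-240l19.7, si:dkeyp-98a7.4, the stanniocalcin stc1l (6.87 and 9.64), chia.2 with both of its probes, chia.3, the cerebellin cbln9, the amine oxidase aoc1, the protease c6ast4 and the somatolactin smtlb (8.94 and 11.28). For si:dkeyp-98a7.4 the difference rested on 1 probe, since its 2 other probes differed by 0.09 and 0.66 in the opposite direction. Of the 3 probes of chia.3, 1 was dim.

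Clock genes were split by direction and not shifted as a family. Of 53 clock probes 24 were higher on control array 1 and 29 on array 2, with a median of -0.06, but 8 were at least 2-fold higher on array 1 and 3 on array 2. Those higher on array 1 were nr1d1, per1b (11.50 and 9.26), nr1d2b (13.75 and 12.50), tefa (13.42 and 12.34) and cry5 (9.92 and 8.78). Those higher on array 2 were nfil3-5 (12.49 and 14.07), bmal1b (8.41 and 9.51) and cry3b (6.68 and 8.08). Thus cry5 and cry3b lay on opposite sides. The median of the list changed sign with normexp background correction, to 0.02. The hour at which each pool was taken is not given in the sources used here, and its part in the difference was not tested.

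**Figure D5:**
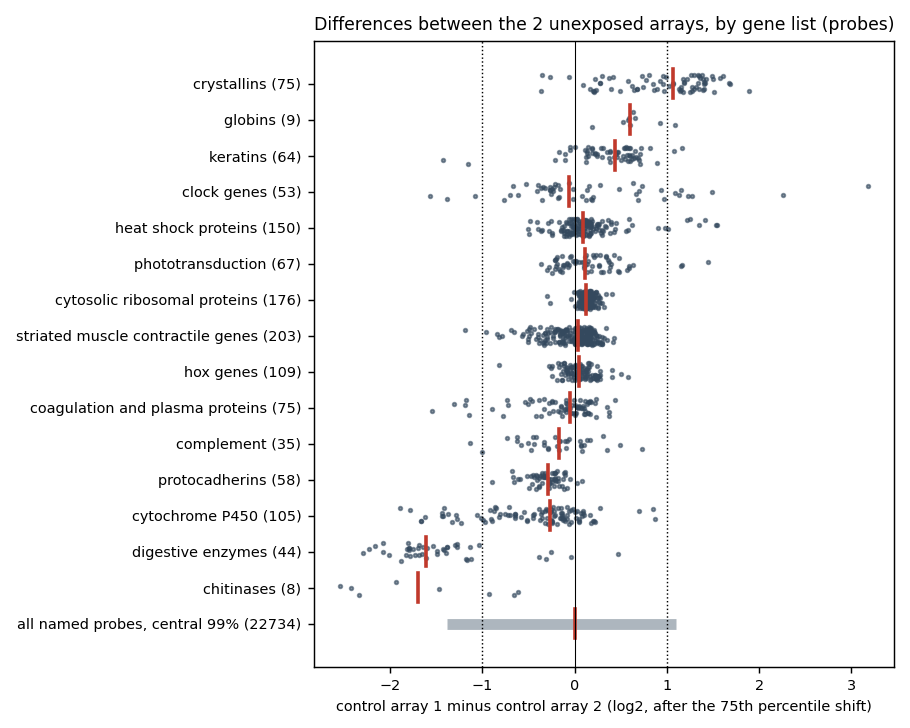
Difference between control array 1 and control array 2 (log2, after the 75th percentile shift) of each probe well above background on both (points), by gene list (number of probes in parentheses), with red ticks at medians, dotted lines at 2-fold and a grey bar for the central 99% of all named probes. Crystallins lie to the right of 0 and digestive enzymes and chitinases to the left, while ribosomal, hox and, apart from 1 probe, muscle probes stay within 2-fold and clock probes spread to both sides.

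Other large lists varied. In solute carriers, the list with the most probes, 4 of 469 were at least 2-fold higher on array 1 and 17 on array 2. None of 176 ribosomal protein probes and 1 of 203 striated muscle probes was at least 2-fold apart, and of 109 hox probes none was. The medians of the ribosomal and muscle lists were 0.13 and 0.04, and both changed sign with quantile normalization, to -0.02 and -0.04. Top probes were 2-fold apart in 38 cases (2.94%), against 336 (1.57%) of the middle probes that were well above background on both arrays. Most of the 38 were probes of crystallins or digestive enzymes, so they repeat the differences of lens and pancreas given above.

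The groups were close to the same on the arrays of exposed larvae, from pools of other fish. Between 96% and 96.9% of the top probes were also in the highest 5% of each of the 6 exposed arrays. Of the dim probes, 82.8% stayed dim on the array of ZnO NP replicate 1. On the other 5 arrays 94.1% to 96.2% did, and 1245 of the 1823 (68.3%) were dim on all 6.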

How the data were processed

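The deposited files hold the output of Agilent Feature Extraction (version 10.10.1.1 per the file headers) for 1-colour arrays of 62976 spots, 61657 of them zebrafish spots. For the intensity used, the processed signal, the authors' software took off the background and corrected spatial trends, and spots not above background hold a floor value. Outlier spots (11 and 8 on the 2 control arrays) were left out, log2 signals of repeated spots were averaged, and a probe was called well above background on an array if any spot was so marked. No spot was saturated. RefSeq accessions on the array gave symbols through the GRCz12tu annotation and left 17749 probes unnamed. Positions are not printed because the headers state a different genome build.

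Members and lists were chosen with earlier results of these data known. The 66 family lists were matched by symbol, their patterns were corrected after wrong matches were seen, and the nitr, chitinase and early embryo lists were added after values were seen. Named are the 30 genes with the highest signal, up to 4 genes of a list (other members were named after their values were seen), the 12 probes with the largest difference and runs of neighbours. A single group of 2 arrays allows no test, and the number of arrays limits the precision. Values were computed in Python 3 with pandas, and normexp was run in limma. The code was also run on simulated arrays whose background marks were set in advance, which checks the code and not the groups. The authors' table of centred log2 values holds no levels and was not used.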

Additional observations from a re-analysis of the deposited data

Results flagged for a closer look

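Probes without a gene symbol entered no list. Of 17749 such probes, 238 (1.34%) had a mean signal at or above 14.08, the lower edge of the top group, the highest at 19.16 on the log2 scale, and 4864 (27.4%) were dim on both control arrays. This signal was singled out because it lies outside the named probes.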

How the results depend on the processing

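No paired analysis was possible because only the control group was used and no test was made. Against 1823 dim probes, 575 were dim when any positive and significant signal counted as detection, and 795 genes were dim when each was read by its brightest probe. With 1 control array left out the dim count ran from 1853 to 3089, and the number of lists with a majority of dim genes from 6 to 11. The 5 lists added with control array 1 alone were transmitter and peptide receptors, interferons, T and B cell genes, toll-like receptors and early embryo genes. Of the 1292 top probes 1260 stayed top under normexp, 1291 with quantile normalization and 1292 with outlier spots kept. With 1 array left out 1262 to 1271 did. The 75th percentile shift leaves the order of probes read on both arrays unchanged, so its 1292 is no check. The highest 5% of the probes well above background on both arrays were 1136, taken in the same order. That count was set by the filter and is no check either. The highest 5% of genes by their brightest probe were 664 genes. The 374 probes at least 2-fold apart were 221 under normexp (101 higher on array 1 and 120 on array 2) and 896 when all named probes were kept (263 and 633), and 373 to 380 otherwise. Of 462 list shares recomputed, 9 left the 95% exact binomial interval of the share given above. That interval treats the genes of a list as independent and is wide for short lists, so the count is no measure of stability. With control array 1 alone the dim share of vitellogenins went from 0% to 40.0% and that of toll-like receptors from 30% to 60.0%, both within it. Promoter motifs and protein lengths by group, names from the array files alone and the authors' centred values were not run, as the sources used here hold no sequences, symbols or levels for them. The floor limits what can be said of dim genes, and 2 pools of larvae limit every difference between the arrays.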
